A study of Rattus norvegicus with 6 samples.

Results

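The shortest spliced circular RNAs of the rat thalamus were described here. Circular RNAs (circRNAs) with a deposited spliced sequence below 250 nt that was also shorter than the genomic span between its ends were taken, and 3214 of 32445 circRNAs (9.91%) met both conditions. No read count entered this choice. The other spliced circles, 28461 in number, measured 250 nt or more and are called longer circles below, and 770 circles had a sequence as long as their span. Of those 770, 42 were below 250 nt and were left out. The thalamus came from 6 rats, 3 of which had received 50 µL of CFA (complete Freund's adjuvant, an emulsion that provokes lasting inflammation) into both temporomandibular joints. The 3 control rats had received saline the same way. Both groups were injected 2 times a week, and the tissue was collected at 14 days. The labels give no strain, sex or age, and no genotype or further treatment is named for either group.

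A circRNA arises when the spliceosome joins the end of an exon back to the start of the same or an upstream exon, which closes the RNA into a ring without free ends. Rings resist exonucleases and are long-lived, and they are plentiful in neurons, where many come from genes of the synapse. A ring is recognised in sequencing by reads that cross this back-splice. A read count is taken here as a count of back-splice reads, which says nothing of the bases inside the ring. In the deposited file the 58-nt junction sequence equalled the last 29 and the first 29 bases of the spliced sequence in 32489 of 32489 entries. No source used here says how the bases between were chosen.

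The sequences that carry the results are printed 5′ to 3′ from the first base after the back-splice, as deposited. Positions are those of the deposited headers with starts counted from 1, and no source used here names the genome build. The first 3 are the most abundant short circles, shown because they hold 11.3% of the reads of the class. In the circle from chromosome 6 the capitals mark the first 89 bases, which it shares with a second, 1932-nt sequence deposited for the same circle. Its other bases, but for the final 2, match the end of that sequence. In the pair from chromosome 2 they mark the 97 bases both circles share.
189 nt circle, chr6:105078168-105080571, minus strand: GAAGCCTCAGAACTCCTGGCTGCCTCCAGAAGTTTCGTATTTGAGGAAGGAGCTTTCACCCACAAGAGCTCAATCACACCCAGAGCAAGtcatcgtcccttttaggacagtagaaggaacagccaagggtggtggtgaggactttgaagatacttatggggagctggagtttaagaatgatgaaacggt
196 nt circle, chr2:38006903-38014366, minus strand: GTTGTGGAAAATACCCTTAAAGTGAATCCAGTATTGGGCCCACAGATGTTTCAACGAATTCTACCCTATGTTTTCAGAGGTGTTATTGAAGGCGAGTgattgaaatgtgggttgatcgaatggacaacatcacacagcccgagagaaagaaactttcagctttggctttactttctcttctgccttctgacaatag
196 nt circle, chr2:37974029-38014366, minus strand: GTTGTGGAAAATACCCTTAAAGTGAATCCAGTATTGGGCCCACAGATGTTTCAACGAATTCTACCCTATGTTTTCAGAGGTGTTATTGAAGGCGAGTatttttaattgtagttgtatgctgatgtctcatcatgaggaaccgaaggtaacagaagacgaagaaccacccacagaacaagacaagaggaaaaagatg
The next 4 lead the comparison of CFA with saline. In the pair from chromosome 20 the capitals mark the 129 shared bases, and in the circles from chromosomes 17 and 8 they mark 10 bases on each side of the back-splice.
229 nt circle, chr20:31723610-31736111, minus strand: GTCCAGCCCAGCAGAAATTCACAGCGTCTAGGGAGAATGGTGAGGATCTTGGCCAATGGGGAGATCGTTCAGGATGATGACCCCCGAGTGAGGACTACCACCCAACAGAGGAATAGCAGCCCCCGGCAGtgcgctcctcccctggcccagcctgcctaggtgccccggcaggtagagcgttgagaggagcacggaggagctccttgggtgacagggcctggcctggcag
229 nt circle, chr20:31723858-31736111, minus strand: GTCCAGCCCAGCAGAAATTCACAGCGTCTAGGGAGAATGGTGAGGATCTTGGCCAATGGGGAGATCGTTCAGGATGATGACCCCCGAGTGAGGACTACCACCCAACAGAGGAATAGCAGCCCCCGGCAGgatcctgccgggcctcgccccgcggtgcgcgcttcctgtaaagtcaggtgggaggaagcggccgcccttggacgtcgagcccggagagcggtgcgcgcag
247 nt circle, chr17:10644964-10645926, plus strand: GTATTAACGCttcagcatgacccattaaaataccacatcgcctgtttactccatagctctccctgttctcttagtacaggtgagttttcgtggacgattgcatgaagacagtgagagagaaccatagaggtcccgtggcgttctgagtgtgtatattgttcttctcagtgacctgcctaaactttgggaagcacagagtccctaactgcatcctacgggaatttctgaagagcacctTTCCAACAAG
213 nt circle, chr8:104504801-104514522, minus strand: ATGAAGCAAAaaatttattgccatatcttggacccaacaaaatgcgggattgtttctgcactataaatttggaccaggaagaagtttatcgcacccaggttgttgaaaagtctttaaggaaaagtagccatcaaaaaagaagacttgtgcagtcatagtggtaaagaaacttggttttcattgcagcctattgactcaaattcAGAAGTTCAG
The shortest circle read in every library and the shortest of all follow, again with 10 bases on each side of the back-splice in capitals.
144 nt circle, chr6:83421862-83431902, plus strand: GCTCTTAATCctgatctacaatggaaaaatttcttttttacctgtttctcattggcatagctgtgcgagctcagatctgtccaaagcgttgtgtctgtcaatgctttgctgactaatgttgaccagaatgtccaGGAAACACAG
70 nt circle, chr2:28968525-28969941, minus strand: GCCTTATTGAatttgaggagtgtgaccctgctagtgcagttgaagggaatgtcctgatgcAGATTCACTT
The circle from chromosome 13 is shown because it names its gene. Its capitals are identical to bases after the RefSeq start of Cacna1e, the pore-forming subunit of the R-type calcium channel.
241 nt circle, chr13:72342021-72367981, minus strand: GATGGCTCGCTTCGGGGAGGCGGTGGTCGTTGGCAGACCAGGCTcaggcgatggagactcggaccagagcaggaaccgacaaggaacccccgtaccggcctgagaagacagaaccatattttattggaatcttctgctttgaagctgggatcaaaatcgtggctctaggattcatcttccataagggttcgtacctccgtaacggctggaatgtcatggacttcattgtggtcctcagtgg
The last pair, from chromosome 1, shows circles of equal length that share only their last 63 bases, which are in capitals.
163 nt circle, chr1:195171678-195244079, minus strand: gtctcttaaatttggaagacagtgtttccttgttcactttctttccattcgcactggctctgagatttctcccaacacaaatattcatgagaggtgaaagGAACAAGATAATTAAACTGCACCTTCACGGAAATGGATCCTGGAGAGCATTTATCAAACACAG
163 nt circle, chr1:195171678-195199453, minus strand: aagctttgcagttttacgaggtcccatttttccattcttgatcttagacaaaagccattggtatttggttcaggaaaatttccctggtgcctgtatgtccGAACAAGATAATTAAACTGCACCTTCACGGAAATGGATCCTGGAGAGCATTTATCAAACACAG

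The deposited lengths ran from 70 to 249 nt, with a median of 219 nt and quartiles of 196 and 235 nt. Most of the short circles, 2308, measured 200 to 249 nt, and 850 measured 150 to 199 nt. Another 56 were below 150 nt, and a single one was below 100 nt. Their genomic spans were long beside this. The span ran from 258 to 98866 nt with a median of 10594 nt, close to the median of 11655 nt for the longer circles, whose median length was 399 nt. By these medians the deposited sequences of short circles left out most of the span, as did those of longer circles. At the limit itself nothing broke: 560 circles of 240 to 249 nt had a median of 1.80 RPM and 582 circles of 250 to 259 nt a median of 1.81 RPM. RPM stands for back-splice reads per 1000000 circRNA reads of a library, averaged here over the 6 libraries.

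Many of the deposited sequences were made of pieces of exactly 100 bases. Where a circle shares 1 end with another circle but not the other end, the point at which their sequences part gives the length of the shared piece and of the remainder. This could be read for 1988 short circles at 2517 ends, which gave 5034 lengths. Exactly 100 bases were found 740 times, whereas each length from 105 to 150 bases was found a median of 45.5 times and at most 62 times. The neighbouring lengths of 99 and 101 bases were found 182 and 305 times. Longer circles showed the same excess, with 2294 of 54598 lengths at exactly 100 bases and a median of 188 per length from 105 to 150. In all, 646 of the 1988 short circles (32.5%) had a shared or remaining piece of exactly 100 bases. Of 19913 longer circles compared in the same way 10.3% had one. A short sequence has fewer possible piece lengths, so any length near 100 is met more often, and this was not corrected for. The short circles with such a piece had a median of 1.76 RPM and the 1342 without one 2.03 RPM. Of the 8 most abundant that could be compared, among the 10 highest, 1 had such a piece. The highest of all, the 189-nt circle from chromosome 6, could not be compared with another circle. It shares its first 89 bases with its own 1932-nt sequence, and 100 bases remain after them. Without its final 2 bases it also shares its last 100 bases with the end of that sequence. The shared stretches overlap, so the point where the pieces meet is not fixed.

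The printed pairs show such pieces. In the chromosome 20 pair the last 100 bases differ after 129 shared ones, and in the chromosome 1 pair the first 100 bases differ before 63 shared ones. In the chromosome 2 pair 99 bases remain. Pieces of this length were looked for after these pairs had been read, and no source used here mentions them. Whether the rings in the tissue hold these bases was not tested, so a length below 250 nt is the length of the deposited sequence. The counts are taken here to rest on the back-splice and not on this length, but no source used here says how reads were assigned.

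The inside of the spans points to what the deposited sequences leave out. In 2178 short circles (67.8%) the span held a back-splice end of another circle of the same strand. Of these, 1956 (89.8%) lacked the 20 bases next to at least 1 such end in their own sequence, and 1392 (63.9%) lacked every one. Among the longer circles with such an end inside, 58.2% lacked at least 1 and 20.5% lacked every one. A longer sequence has more room for such an end, and this was not corrected for.

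In base composition the short circles resembled the longer ones. Median GC content was 46.9% against 47.8%. The sequence ended in AG in 54.6% of short and 56.2% of longer circles, and it began with G in 44.2% and 44.7%. The length was divisible by 3 in 34.7% of short circles and in 34.5% of longer ones. An endless reading frame is one that can be read round the ring without meeting a stop codon. Counted only where the length was divisible by 3, it was present in 516 short circles (16.1%) and in 19.1% of the longer ones. Among lengths divisible by 3 the shares were 46.3% and 55.4%. Among the most abundant circles, the 189-nt circle from chromosome 6 and a 177-nt circle from chromosome 9 had such a frame.

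Short circles were read less often than longer ones in every library. Over the circles seen in a library, the mean was 12.4 reads per short and 38.5 reads per longer circle in CFA 1, 12.1 and 41.3 in CFA 2, and 13.9 and 47.0 in CFA 3. In the saline libraries it was 13.4 and 38.9, 15 and 54.3, and 12.2 and 47.4. Longer circles thus exceeded short ones by 2.91-fold to 3.90-fold, and no library came near equality. The mean log2 ratio of short to longer was -1.75 ± 0.152 (SD, n = 6 libraries, exact two-sided sign-flip permutation test, p = 0.0312, the smallest that 6 libraries can give). Every library was scored on the same lists of short and longer circles. This p therefore measures agreement between libraries and not the spread between circles. The medians were 6 to 7 reads against 10 to 12 reads. The fragment size that the labels give for the libraries, 370 to 420 bp, is longer than every short circle, and its part in the result was not tested.

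The reads did not fall steadily toward the smallest rings. Circles of 150 to 199 nt had a mean of 9.83 RPM, circles of 200 to 249 nt 4.73 RPM and circles of 250 to 299 nt 6.42 RPM. From there the mean rose to 11.8 RPM at 300 to 349 nt, 27.5 RPM at 400 to below 500 nt and 143 RPM at 700 to 999 nt. The bump at 150 to 199 nt rested partly on few circles, since without the 5 highest the mean was 6.01 RPM, and the median of 2.03 RPM equalled that at 250 to 299 nt. Only 56 circles lay below 150 nt, with a mean of 7.61 RPM and, without the 5 highest, 2.80 RPM.

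**Figure D1:**
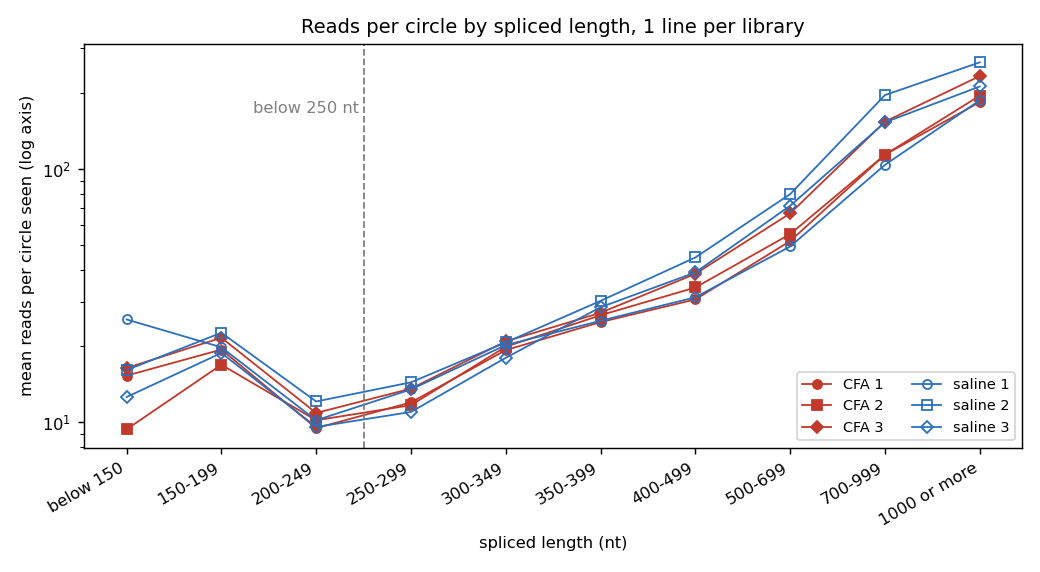
Mean reads per circle seen in a library (vertical, log axis) against spliced length in nt (horizontal), with 1 line for each of the 6 libraries; filled red marks are CFA and open blue marks saline. Left of the dashed line at 250 nt the lines reach their lowest point at 200 to 249 nt in 5 libraries and below 150 nt in CFA 2, and right of it every line rises.

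Few short circles were read in every rat. Reads in all 6 libraries were found for 229 (7.13%), against 27.8% of longer circles, and 1594 (49.6%) were read in a single library, against 26.7%. At least 50 RPM were reached by 46 short circles (1.43%) and by 10.3% of longer ones. The 10 most abundant short circles held 24.1% of the reads of their class, where the 10 most abundant longer circles held 7.03%. The classes hold 3214 and 28461 circles, so 10 circles are a larger part of the short ones, and these shares do not compare concentration. The 22 short circles of at least 100 RPM were each read in every library and made up 31.6% of the class in reads. They measured 144 to 249 nt with a median of 202 nt, and 11 of the 22 were below 200 nt, a share of 50.0% where all short circles have 28.2%. These 22 were picked by their level, so this is a description.

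Within a band of 50 to below 200 RPM the short circles had the wider spread over libraries. Over the 37 short circles in it, with a median level of 78.3 RPM, the median coefficient of variation over the 6 libraries was 42.9%, against 31.4% over 2150 longer ones with a median level of 82.8 RPM. This difference was not tested. A library without reads was found for 4 of the 37 (10.8%) and for 3.95% of the longer ones. A 135-nt circle, chr2:20507150-20519067, had 71.6, 0 and 157 RPM in CFA and 120, 69.7 and 54.5 RPM in saline. A 139-nt circle, chr8:96982838-96985190, had 231 reads in saline 1 and none in the other 5 libraries, and it was the only circle at its locus. Both were picked after their values were seen.

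The most abundant short circle was the 189-nt circle from chromosome 6. It had 818, 442 and 1150 RPM in CFA and 1238, 1173 and 541 RPM in saline. The groups overlapped, and CFA 2 and saline 3 were the low libraries. The log2 fold change, CFA minus saline, was -0.30 ± 0.27 (SE; adjusted p = 1, edgeR quasi-likelihood F test, Benjamini-Hochberg). A second identifier with the same ends and the same 189-nt sequence had 16 to 128 reads per library, 79.6 RPM on average, and how the authors' counting divided reads between the 2 identifiers is uncertain. Both also carry the 1932-nt sequence noted above, which closes 2 bases earlier. Which of the lengths the ring has in the thalamus cannot be told from the counts.

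Next came the pair from chromosome 2, which share the first 97 bases and differ in where the ring closes. The circle ending at 38006903 had 1007, 658 and 810 RPM in CFA and 1072, 355 and 546 RPM in saline, a log2 fold change of 0.34 ± 0.28. Its partner, whose 3′ end lies 32874 nt further along at 37974029, had 763, 471 and 623 RPM in CFA and 580, 511 and 721 RPM in saline, a log2 fold change of 0.01 ± 0.29. Both had adjusted p = 1 in the same edgeR test, and in each the groups overlapped. They were the only circles of their locus and held 53.0% and 47.0% of its reads. In saline 2 the order of the pair was turned, with 355 RPM for the nearer and 511 RPM for the farther closing point, as it was in saline 3.

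The other 7 of the 10 most abundant measured 159 to 235 nt. A 195-nt circle, chr12:587083-591296, averaged 496 ± 137 RPM in CFA and 579 ± 182 RPM in saline (SD, n = 3 each). A 235-nt circle, chr16:85590483-85595037, had 470 ± 92.9 and 534 ± 152 RPM. A 163-nt circle, chr11:84632585-84638229, had 549 ± 179 and 436 ± 15.8 RPM. These 3 were alike in level and were exceeded by none of the remaining 4. A 170-nt circle from chromosome 5 held 98.1% of the reads of its locus, whereas a 226-nt circle from chromosome 10 held 2.79% of a locus with 19 circles. Across all 10 the log2 fold changes lay between -0.30 and 0.36 with SE of 0.27 to 0.35, and the smallest adjusted p was 1 (edgeR quasi-likelihood F test, Benjamini-Hochberg). The precision of these 10 was the best in the class.

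The 5 shortest circles read in every library measured 144 to 156 nt. The 144-nt circle from chromosome 6 had 203, 81.3 and 112 RPM in CFA and 61.0, 113 and 123 RPM in saline, and it was alone at its locus. A 151-nt circle, chr2:165581749-165591112, had 120, 118 and 112 RPM in CFA and 108, 57.8 and 178 RPM in saline. The CFA values lay close together and inside the range of the saline values. A 154-nt circle from chromosome 2 was rare, with 3.40 to 15.2 RPM. A 155-nt circle, chr4:148256642-148258399, had 27.4, 27.6 and 16.6 RPM in CFA and 34.9, 34.0 and 43.8 RPM in saline, so every CFA value lay below every saline value. Its log2 fold change was -0.70 ± 0.60 and did not pass the test (adjusted p = 1, edgeR quasi-likelihood F test, Benjamini-Hochberg). The shortest circle of all, of 70 nt over a span of 1417 nt, had 4 reads in CFA 3 and none elsewhere.

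**Figure D2:**
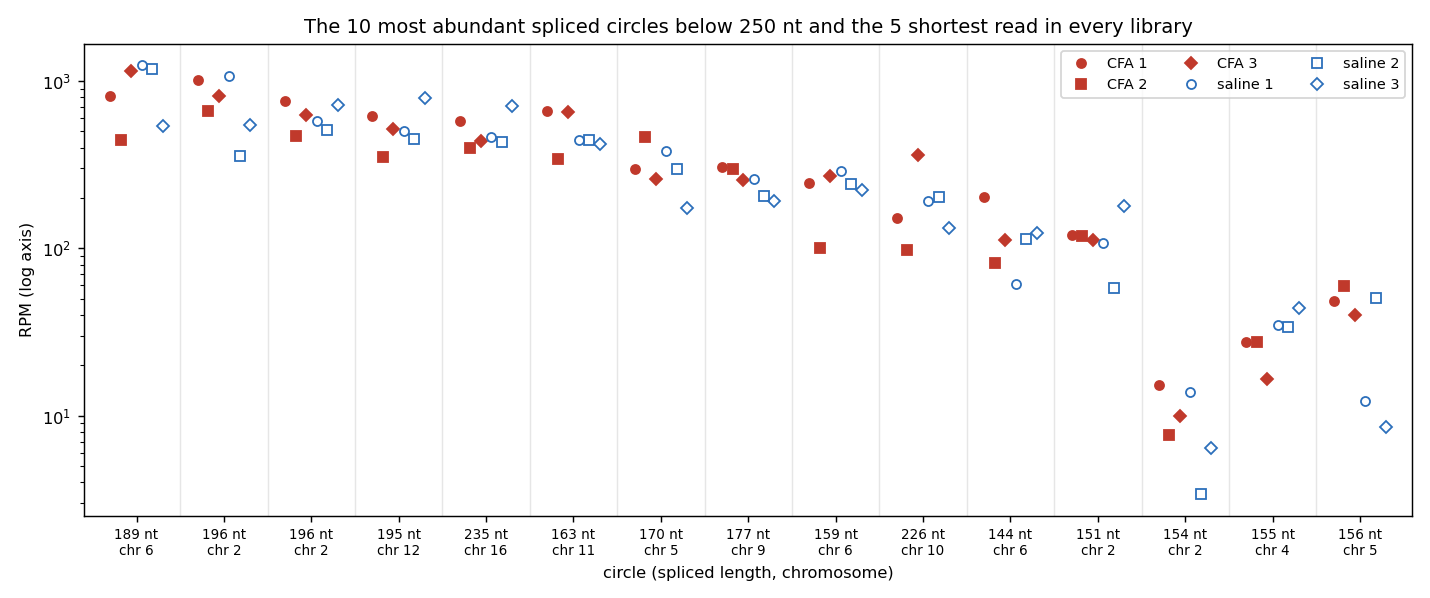
RPM in each library (vertical, log axis) for the 10 most abundant short circles, left, and the 5 shortest that were read in every library, right; filled red marks are CFA 1 to 3 and open blue marks saline 1 to 3. The marks of both groups overlap in every column but that of the 155-nt circle.

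The short circles mostly shared their loci with other circles and took a small part of the reads there. A locus is a run of circRNAs that overlap on 1 strand. The short circles fell into 2411 loci, of which 1865 held 1 short circle each and the richest held 8. That locus, chr20:26776932-26830182 on the plus strand, had 29 circles, and its 8 short ones of 188 to 238 nt held 6.02% of its reads. Alone at their locus were 619 short circles (19.3%), against 12.3% of longer ones. In shared loci of at least 100 reads, the median share of the locus reads was 1.55% over 1943 short circles, against 4.07% over the longer ones. A short circle led such a locus 76 times, which is 3.91% of the short circles there, where 14.8% of the longer ones led. Neither end was shared with another circle in 968 short circles (30.1%), against 20% of longer ones.

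A group of 4 short circles on chromosome 1 ended at the same position, 195171678, and all measured 163 nt. Their starts lay at 195189253, 195199453, 195208044 and 195244079. The first and the last had the same 163-nt sequence letter for letter, and so did the middle pair, although their starts are far apart. The nearest start gave 9, 8 and 23 reads in CFA and 32, 12 and 19 in saline, and the farthest 10, 10 and 30 in CFA and 22, 19 and 20 in saline. The 2 were thus close in level, at 23.0 and 23.3 RPM, and a read over the back-splice fits both equally, so how the authors' counting divided them is uncertain. In all, 14 short circles in 7 pairs shared their whole sequence with another short circle.

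Host genes could be named for few of the rings. The files do not pair circles with genes, so the first 50 bases after each RefSeq gene start (GRCr8) were searched for at least 30 identical bases in a row. A match to exactly 1 gene on the same chromosome was found for 37 short circles (1.15%) of 33 genes. Only circles that hold at least 30 of these bases in a row can be named in this way. The match began at the first base of the circle in 16 of the 37 and further in for the others. Of 345 listed genes 4 were reached, so no list was counted. Of the 37, 10 were read in all 6 libraries and 12 in 1. Of the 23 that were tested 0 passed, where 0.125% of all 22426 circRNAs tested did. In edgeR an unadjusted p under 0.05 was found for 1 of the 23, against a background of 2.68%. The smallest unadjusted p was 0.0192 and the smallest adjusted p 0.912 (edgeR quasi-likelihood F test, Benjamini-Hochberg).

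Among calcium channel genes, the 241-nt circle with the start of Cacna1e was the most abundant named ring. It had 113, 227 and 63.1 RPM in CFA and 152, 331 and 195 RPM in saline, and the groups overlapped. Its log2 fold change was -0.84 ± 0.36, which had the smallest p of the named rings and did not pass. It held 40.0% of the reads of a locus with 6 circles. A 240-nt circle matched the start of Cacna1a, the pore-forming subunit of the P/Q-type calcium channel at nerve terminals, and was rare at 7.48 RPM and alone at its locus.

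Among synaptic scaffolds, the 156-nt circle from chromosome 5 began with bases of the start of Dlgap3, a protein of the postsynaptic density. It had 48.7, 59.9 and 39.8 RPM in CFA and 12.2, 50.2 and 8.55 RPM in saline. Saline 1 and saline 3 were low and saline 2 was level with the CFA libraries. The log2 fold change of 0.95 ± 0.56 did not pass (adjusted p = 0.912, edgeR quasi-likelihood F test, Benjamini-Hochberg). The circle held 96.3% of the reads of its locus. Cntn3, a neuronal adhesion protein, gave a 228-nt circle that was read in CFA 3 alone, at 7.75 RPM.

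Of the other named rings, those above 40 RPM came from 3 genes. A 238-nt circle of Shoc2, a scaffold of the Ras and MAP kinase pathway, averaged 74.2 ± 20.3 RPM in CFA and 62.8 ± 20.1 RPM in saline (SD, n = 3 each). A 193-nt circle of Mbd5, a protein with a methyl-CpG-binding domain, had 80.2 ± 25.4 and 54.1 ± 18.2 RPM and held 91.0% of its locus. A second, 238-nt circle of Mbd5 had 6.36 RPM. Bmpr1a, a receptor for bone morphogenetic proteins, gave 3 short circles of 217, 214 and 214 nt with 44.4, 11.7 and 1.29 RPM. In the Shoc2 circle and the 193-nt Mbd5 circle the groups overlapped.

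Seeds of brain and inflammation miRNAs were matched less often in short rings than in longer ones, and per base almost as densely. A microRNA (miRNA) finds its targets through its seed, bases 2 to 8, and the complement of the seed was searched on the sense strand round the ring, across the back-splice. Of 15 miRNAs searched, at least 1 had a match in 810 short circles (25.2%) and in 45.9% of longer circles. Per 1000 bases the matches numbered 1.35 and 1.48. The most frequent were rno-miR-138-5p with 101 short circles and rno-miR-9a-5p with 100, and the least frequent was rno-miR-21-5p with 26. A second match to the same miRNA was found in 13 short circles, and none had 3. The 13 were rare, at 0.283 to 5.94 RPM. Among the 10 most abundant, 1 had a match, the 159-nt circle from chromosome 6 to rno-miR-9a-5p.

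For rno-miR-7a-5p, the miRNA whose binding to a large brain circRNA is best known, 58 short circles had a match and 3 had a pair. The most abundant of the 3 is printed with the mature miRNA, whose capitals mark the seed, and the capitals in the ring mark its GTCTTCC matches at positions 47 and 183. It had 2, 0 and 7 reads in CFA and 8, 2 and 6 reads in saline. The sequence of the miRNA is that of RefSeq. A match is a description and not a binding site.
rno-miR-7a-5p: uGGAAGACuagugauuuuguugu
243 nt circle, chr18:71102026-71104420, plus strand: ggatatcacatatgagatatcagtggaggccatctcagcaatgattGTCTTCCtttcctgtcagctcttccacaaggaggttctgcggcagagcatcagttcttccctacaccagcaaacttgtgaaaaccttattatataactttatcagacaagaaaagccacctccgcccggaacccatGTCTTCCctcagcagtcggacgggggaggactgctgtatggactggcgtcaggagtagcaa

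The comparison of CFA with saline asked whether joint inflammation goes with a change in these rings of the thalamus. Short circles held 2.09%, 1.78% and 2.22% of the circRNA reads in CFA and 2.13%, 1.92% and 1.68% in saline. The means were 2.03 ± 0.223% and 1.91 ± 0.228% (SD, n = 3 each; exact permutation test on both sides, p = 0.600, where 3 against 3 cannot go below 0.1). They made up 6.48%, 6.08% and 7.42% of the circRNAs seen in CFA and 6.20%, 6.97% and 6.52% in saline (exact permutation test, p = 0.9). In the 1233 loci of at least 100 reads that hold a short and another circle, the summed share of short circles was 3.19%, 2.85% and 3.13% in CFA and 3.05%, 2.83% and 2.59% in saline (exact permutation test, p = 0.200). The median share over these loci was 0 in CFA 1, CFA 2 and saline 1, and reached 1.42% in CFA 3 and 1.2% in saline 2 (exact permutation test, p = 1). In all of these the groups overlapped. In whole tissue, fewer cells of a type and less circRNA per cell cannot be told apart.

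**Figure D3:**
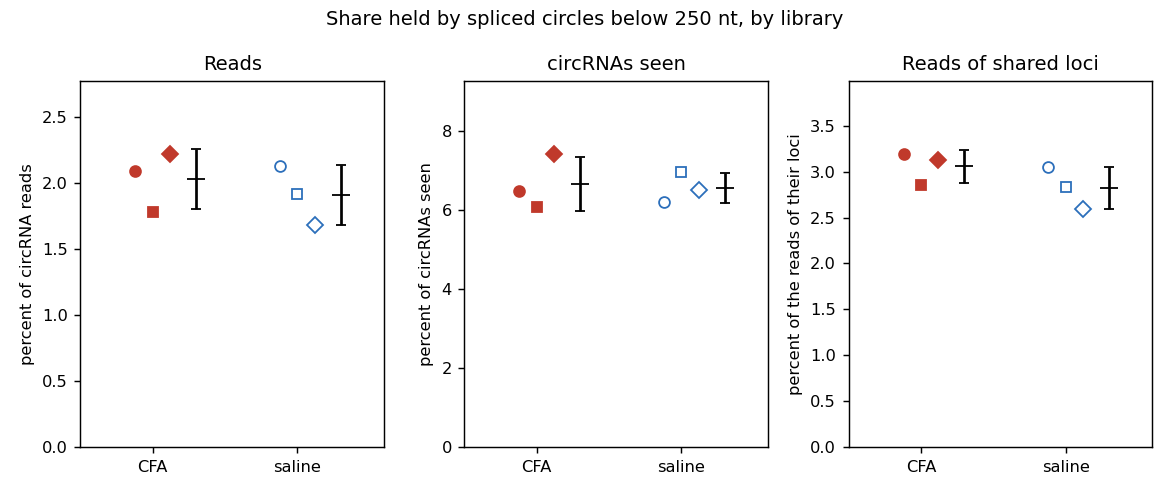
Share held by spliced circles below 250 nt in each library, in percent, of the circRNA reads (left), of the circRNAs seen (middle) and of the reads of loci they share with other circles (right); red filled marks are CFA, blue open marks saline, and the black bars give the mean ± SD of 3 libraries. CFA and saline marks overlap in every panel.

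Single short circles passed the test about as often as any circRNA. At least 10 reads over the 6 libraries, the minimum for the test, were reached by 1492 of the 3214 short circles (46.4%), against 71.6% of longer circles. Of the 1492, 2 passed (0.134%), where 0.125% of all 22426 circRNAs tested did. One was higher and 1 lower in CFA, and the background in each direction was 0.0624%. In simulated counts of this depth and spread the same test made more false calls than its threshold allows, so each of the 2 calls is given with the libraries it rests on. An unadjusted p below 0.05 was found for 39 of them (2.61%, background 2.68%), 19 higher (background 1.23%) and 20 lower (background 1.45%). In 110 (7.37%, background 6.63%) every value of 1 group lay above every value of the other. The median log2 fold change was 0.0854 over the short circles tested and -0.0534 over all circRNAs tested. The median SE was 2.47 and 1.68, so for most of the short circles these counts could not show a change of several-fold. Of the 229 read in all 6 libraries, all were tested and 212 (92.6%) lay within 1 log2 unit of no change, where 94.0% of all circRNAs so read did.

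**Figure D4:**
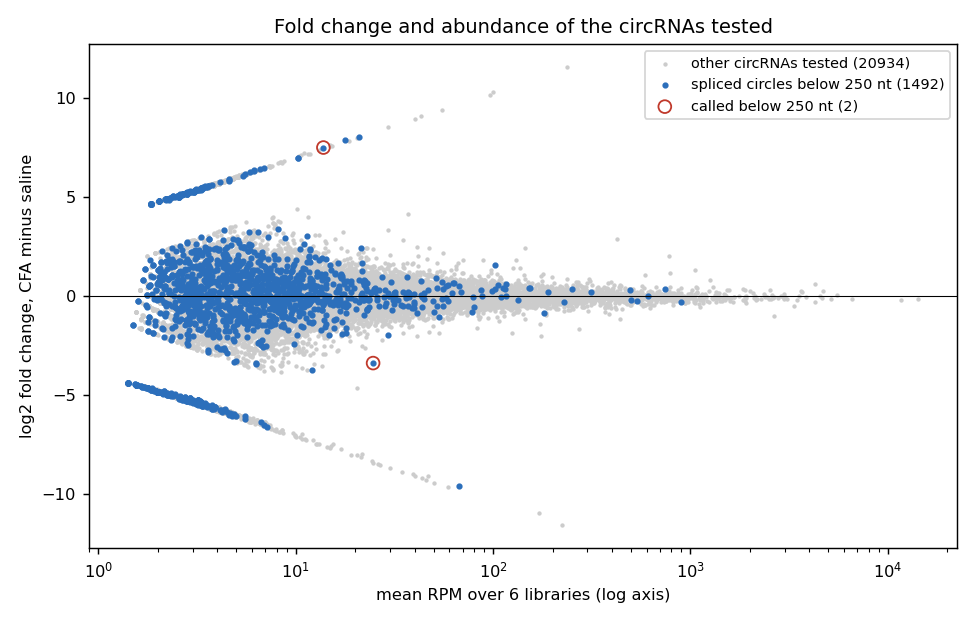
Log2 fold change, CFA minus saline (vertical), against mean RPM over 6 libraries (horizontal, log axis) for the circRNAs tested: 1492 spliced circles below 250 nt in blue, the others in grey, and the 2 called short circles ringed in red. The slanting bands above and below hold circles read in 1 group only, and their fitted values depend on the small count added to the zeros.

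Reads in 1 group only were common among the short circles. This was so for 290 of the 1492 tested (19.4%), 127 in CFA and 163 in saline. Of all 22426 circRNAs tested it was so for 2501 (11.2%), 856 in CFA and 1645 in saline. Short circles also had fewer reads, with a median of 1.78 RPM against 4.85 RPM for longer ones before the minimum of reads. The libraries held 656598, 651615 and 903443 circRNA reads in CFA and 573696, 1176178 and 936062 in saline. Neither the level of the circles nor the depth of the libraries was corrected for. Of the 290, 123 had all their reads in 1 library and 27 in all 3 libraries of the group. A 233-nt circle, chr6:75959532-75965681, had 82 reads in CFA 1 and none elsewhere, and a 244-nt circle, chr4:161824417-161827025, had 96 reads in CFA 3 and none elsewhere. Neither passed (adjusted p = 1 and 0.912, edgeR quasi-likelihood F test, Benjamini-Hochberg). They were chosen after their values were seen.

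The short circle that passed as higher was novel_circ_0012460, the 247-nt ring from chromosome 17 over a span of 963 nt. It had 0, 10 and 61 reads in CFA and no read in any saline library. CFA 3 held 61 of its 71 reads and CFA 1 had none, so the CFA libraries did not move together. Against a floor of 3 reads over the saline group, its summed level of 32.1 RPM in CFA was at least 28.7-fold higher than in saline. Without CFA 3 the summed level was 7.64 RPM and the bound 6.84-fold. It passed with an adjusted p of 0.0113 (edgeR quasi-likelihood F test, Benjamini-Hochberg). It did not pass without CFA 3 (fitted log2 fold change 5.58, adjusted p = 0.982), without saline 1 (7.58, adjusted p = 1) or in DESeq2 (7.02, adjusted p = 1), against 7.51 with all 6 libraries in edgeR. No other circle lay at its locus.

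The short circle that passed as lower was novel_circ_0022168, the 229-nt ring from chromosome 20 that ends at 31723610. It had 0, 0 and 10 reads in CFA and 47, 37 and 22 reads in saline, and the groups did not overlap. Its log2 fold change was -3.39 ± 0.78 (adjusted p = 0.0143, edgeR quasi-likelihood F test, Benjamini-Hochberg). It did not pass without CFA 1 (log2 fold change -2.87, adjusted p = 0.175), without CFA 2 (-2.85, adjusted p = 0.111) or without saline 1 (-2.82, adjusted p = 1), nor in DESeq2 (-3.51, adjusted p = 1). Without CFA 3, which leaves no CFA read of it, it passed (adjusted p = 1.42e-05), and the fitted value of -8.14 then depends on the count added to the zeros. Its partner, with the same 5′ end and a closing point 248 nt nearer, had 0, 0 and 31 reads in CFA and 27, 53 and 46 in saline. In RPM the partner's CFA 3 value of 34.3 lay below the saline values of 47.1, 45.1 and 49.1. Its log2 fold change of -1.95 ± 0.71 did not pass (adjusted p = 0.912). Without CFA 3, which leaves no CFA read of it, it did (adjusted p = 3.38e-06). Together these 2 rings, the only ones of their locus, had 0, 0 and 45.4 RPM in CFA and 129, 76.5 and 72.6 RPM in saline.

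CFA 3 stood apart in both results. It was the only CFA library with reads of the chromosome 20 pair and held most of those of the chromosome 17 ring. CFA 3 was also the deepest CFA library, with 903443 circRNA reads against 656598 in CFA 1 and 651615 in CFA 2. Its column in the deposited table also starts with a different letter from the columns of CFA 1 and CFA 2, and no source used here explains the letters. Its part in the results beyond the values without it was not tested.

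Among the rings that did not pass, the 213-nt circle from chromosome 8 came closest. It had 193, 70.6 and 197 RPM in CFA and 50.5, 52.7 and 49.1 RPM in saline. All 3 CFA values lay above the saline values, which were close together, and CFA 2 was nearest to them. The log2 fold change was 1.58 ± 0.41 (adjusted p = 0.0991, edgeR quasi-likelihood F test, Benjamini-Hochberg). Without CFA 2 it passed (log2 fold change 1.93, adjusted p = 0.00456), and without any other single library it did not, with log2 fold changes of 1.32 to 1.64 and adjusted p from 0.191 to 1 in the same edgeR test. This ring held 5.26% of the reads of a locus with 14 circles and had the smallest adjusted p of the short circles read in all 6 libraries. A 197-nt circle from chromosome 4 and a 224-nt circle from chromosome 16 each had 40 reads in CFA 2 and none elsewhere. A 212-nt circle from chromosome 5 had 0, 0 and 4 reads in CFA and 11, 58 and 0 in saline, so the groups overlapped.

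**Figure D5:**
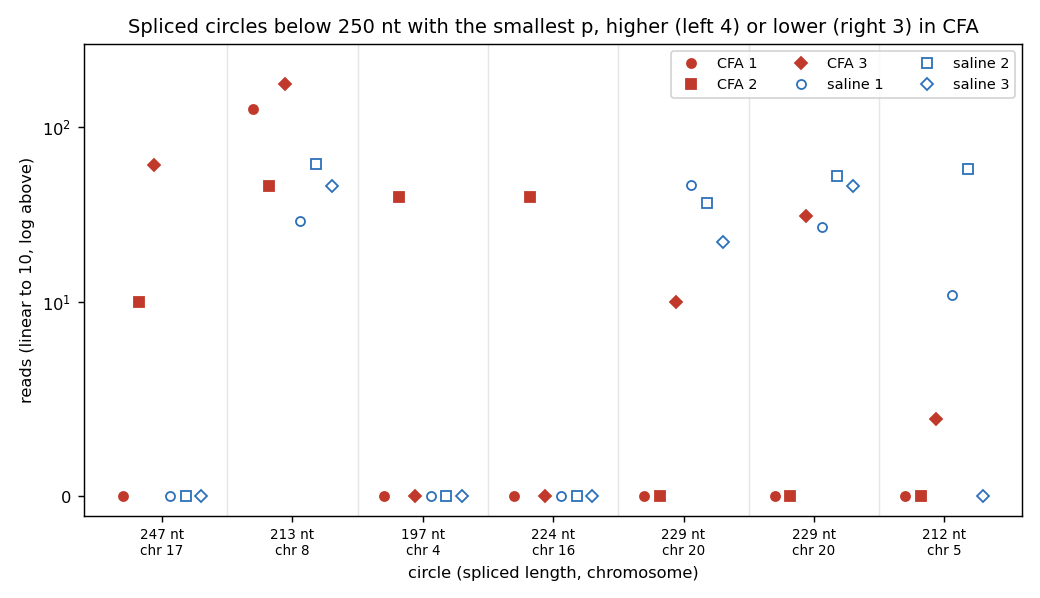
Reads in each library (vertical, linear to 10 and log above) for the short circles with the smallest p, 4 higher in CFA (left) and 3 lower in CFA (right); filled red marks are CFA and open blue marks saline. The 213-nt circle was read in all 6 libraries, and every other column has at least 2 libraries at 0.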

How the data were processed

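Thalamus RNA of 6 rats was sequenced, 3 per group, and groups and replicate numbers came from the sample titles. The labels describe separate rats, and p-values measure the spread between these 6 samples. Libraries were made from RNA bound to poly-T beads, per the labels' protocols, with random hexamers as primers, and were selected at 370 to 420 bp and amplified by PCR. Rings carry no poly(A) tail, and no RNase R treatment is named. Tools in the submitters' processing notes are DESeq2 1.20.0, featureCounts 1.5.0-p3, StringTie 1.3.3b and HISAT2 2.0.5. No circRNA caller is among them, and no source used here names a caller or a build. For every circle and library the authors deposited a raw count of reads and, per the file headers, a normalized value named TPM. Within a library 1 read was worth the same for every circRNA, so that deposited value is an RPM, with no term for length. Here RPM was recomputed as count over table total, 573696 to 1176178 reads per library. The lowest count above 0 was 2, so a listed 0 may be 1 read. PCR copies were not marked by molecular identifiers, and intervals would cover counting error only. All sample columns were matched to a sample.

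Deposited sequences were joined to the counts by identifier. For 44 identifiers 2 sequences were deposited, 4 of them among the short circles, and the entry below 250 nt was used. For 2 of those the other entry has 1932 nt. Tests used Python 3.11.15, R 4.3.3 and edgeR 4.0.16 with TMM normalization and a robust quasi-likelihood fit over all circRNAs with at least 10 counts, Benjamini-Hochberg adjustment over all of them and a threshold of 0.05. SE are approximate (log2 fold change divided by the square root of F). Tested on simulated data, the fit called the smaller of the known differences only in part, gave those it called the right direction and made more false calls than the threshold allows. Shares were compared by exact permutation tests. Named circles are the 10 highest by mean RPM, the 5 shortest read in all 6 libraries, those that passed, filled to the 3 smallest p per direction with ties kept, those whose host gene is on a list, and up to 5 that lead their locus with at least 100 RPM. Other circles named were chosen after their values were seen, as were the RefSeq start search and the comparison of piece lengths. A host search by protein sequence and gene and cell type lists were planned, but without a protein table no list was counted, and the labelled tissue was not checked against markers. Alternatives were other size factors, filters, a fit that is not robust, DESeq2 1.42.0, the replicate number as a block, other length limits and leaving out each library. The circles and lists were chosen with earlier results of these data known.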

Additional observations from a re-analysis of the deposited data

How the results depend on the processing

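The number of short circles that passed, 2 of the 28 circRNAs that did in the edgeR quasi-likelihood F test, was 2 of 28 with RLE size factors and with total counts alone and 3 of 32 without a filter. It was 0 of 0 at a minimum of 30 counts, 0 of 0 with filterByExpr, 0 of 4 in DESeq2 and 1 of 32 in the fit that is not robust, which was neither of the 2. An unadjusted p under 0.05 was found for 16 of 584 short circles and 237 of all 13949 at 30 counts, for 4 of 238 and 130 of 9228 with filterByExpr, and for 31 of 1492 and 379 of 22426 in DESeq2. Leaving out each library gave 0 to 3 short circles among 15 to 40 circRNAs, and 0 of 15 without saline 1. In that fit 35 of 1380 short circles and 465 of all 21673 had an unadjusted p under 0.05 in edgeR. With the replicate number as a block 3 of 45 passed, 1 of them shared with the 2. Deviations of same-numbered libraries were hardly correlated (0.023, -0.0024 and -0.071). What a shared number stands for is not stated, and correlations of such sparse counts cannot show it. The difference in the share of circRNA reads, 0.121 percentage points, was the same with the block, 0.0416 below 200 nt and 0.378 below 300 nt, and ran from 0.00448 (without saline 3) to 0.245 (without CFA 2) without each library. The difference in the share of circRNAs seen, 0.0972 points, became -0.00971 at a minimum of 10 counts and ran from -0.285 to 0.388 without each library. The difference in the median locus share, -0.128 points, was 0.235 for summed reads and ran from -0.600 to 0.170 without each library. The log2 ratio of reads per short to longer circle ran from -1.80 to -1.71 without each library, with p = 0.0625, the smallest that 5 libraries allow in the exact test. It was -1.06 against longer circles below 500 nt, -1.18 for circles below 200 nt, -1.27 without the leading circle of each locus and -0.819 for medians. Without each library the log2 fold change of the 189-nt circle ran from -0.68 to 0.01. That of the nearer chromosome 2 circle ran from 0.06 (without saline 2) to 0.79 (without saline 1). That of the farther one was -0.01 with the block and ran from -0.18 to 0.19 without each library. With the block the chromosome 17 ring did not pass (adjusted p = 0.294) and the partner on chromosome 20 did (adjusted p = 0.0367), both in edgeR. Depth limits the rest: of the 3214 short circles, 1594 were read in 1 library.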
